A study of Mus musculus with 6 samples.

Results

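Cells take up amino acids, exchange them and release them from lysosomes through carrier proteins, and 6 solute carrier families hold most of these carriers. The genes described here are those whose annotated symbol begins with Slc1a, Slc3a, Slc7a, Slc36a, Slc38a or Slc43a followed by a digit, measured in liver RNA of mice labelled as hepatocyte knockouts of the splicing factor SRSF3 and of wild-type mice. The symbols chose the genes, without use of any measured value. This rule found 43 of the 16277 genes on the arrays and 609 of the 229581 probe sets. It also caught Slc7a6os, a gene that lies beside Slc7a6 on the opposite strand and is not a transporter, so that 42 of the 43 are carriers or the heavy chains of carriers.

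The series holds 6 Affymetrix mouse exon arrays in 2 genotypes, 3 arrays labelled SRSF3HKO (a knockout of Srsf3 in hepatocytes) and 3 labelled WT. All mice were untreated and 1 month old. The WT controls were age-matched and are called littermates in the title of the series. The Cre driver, the deleted part of Srsf3 and the strain are not given in the sources used here. The labels speak of 3 SRSF3HKO mice but do not say that each WT array is a separate mouse, so the p-values measure the spread between these samples.

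Median intensity was 75.3 to 89.6 on the 6 arrays. The targeted gene did not check the labels at the level of the whole gene. Srsf3 had levels of 9.79, 9.24 and 9.35 on the WT arrays and 10.30, 9.10 and 9.78 in SRSF3HKO. Of its 13 tested probe sets 3 had a lower mean in SRSF3HKO, with changes down to -1.03, and none of these passed the test, whereas 6 were called higher. Which probe sets lie inside the deleted stretch is not known here, and those outside it cannot test for the deletion. The genotypes below are therefore those of the labels. Signal of Y-linked genes was present on WT replicates 1 and 2 and on SRSF3HKO replicate 3 and absent on the other arrays, so it was mixed in both genotypes. Hepatocyte markers, 9 of 12 measured and none of them below the detection floor on all arrays, summed to an intensity of 86141 to 90365 in WT and 60454 to 72938 in SRSF3HKO. Their median change was -0.26, against 0.08 over all genes tested. Serpina1c (-1.57), Cyp2f2 (-3.45) and Glul (-1.13) were called lower. Cyp2e1 (-0.43), Apoa1 (-0.26), Hnf4a (-0.18), Ttr (-0.16) and Alb (-0.02) had lower means but were not called. Only Tat (0.29) had a higher mean, and it was not called either.

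In these families transport often depends on pairing. A heavy chain of the Slc3a family carries a light chain of the Slc7a family to the cell surface, where the pair exchanges one amino acid for another. Carriers of the Slc1a and Slc38a families bring in glutamate, glutamine, alanine and serine with sodium, and hepatocytes use them to feed urea, glucose and glutathione synthesis. Members of the Slc36a and Slc38a families also sit in the lysosome membrane, where Slc38a9 signals arginine to the growth kinase mTORC1. When amino acids are short, the transcription factor ATF4 raises several of these carriers by binding a composite element in their genes.

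The stretches below come from the promoters that hold the letters of that element, TGATGNAA on either strand, and are shown because these letters are what ATF4 and its C/EBP partners are known to bind. Promoters, 250 bases before to 50 bases after each gene start, were found for 32 of the 43 genes in RefSeq (build GRCm38.p6). The remaining genes, among them Slc1a5, Slc7a5 and Slc38a3, had no promoter there and were not searched. The letters occurred in promoters of 3 of the 32 genes, Slc7a11, Slc1a4 and Slc7a7. Some genes have several promoters. Counted by promoter, the letters occurred in 4 of the 43 promoters of these 32 genes and in 3.97% of all 32851 promoters. Each stretch is written 5′ to 3′ along its gene, on the minus strand of the chromosome, with the matched letters in capitals. The 3 genes were chosen by this match, after their expression values were known.

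Slc7a11, chr3:50443643-50443691: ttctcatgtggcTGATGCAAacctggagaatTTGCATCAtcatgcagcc
Slc1a4, chr11:20332710-20332743: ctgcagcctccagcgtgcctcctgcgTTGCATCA
Slc7a7, chr14:54418063-54418100: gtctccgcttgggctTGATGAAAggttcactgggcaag

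In Slc7a11 the letters stand on both strands within the printed stretch, and in Slc1a4 on the strand opposite to the gene. Slc7a7 has further matches outside its printed stretch, TGATGCAA at -1 from the gene start in the same promoter and at -243 in a second promoter. TTGCATCA is TGATGCAA read on the other strand. The letters of the antioxidant response element, TGACNNNGC on either strand, occurred in promoters of 5 genes (Slc43a1, Slc7a1, Slc7a6, Slc36a1 and Slc38a2). Counted by promoter, they occurred in 6 of the 43 promoters found for the members and in 12.4% of all promoters. A match is a description of letters and no evidence of binding.

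A gene's level is given as log2(intensity + 16), the median over its probe sets on each array, and a change is the SRSF3HKO mean minus the WT mean on that scale, which understates changes of dim genes. A gene was tested with limma where its mean over the arrays lay above 5.35, a floor set from receptor genes of smell and taste, and was called at a Benjamini-Hochberg adjusted p under 0.05. Of the 43 genes 31 were tested. With limma, 0 of these 31 were called, against 11.9% of all 11711 genes tested (6.85% called higher in SRSF3HKO and 5.03% called lower). At an unadjusted p under 0.05 there were 5 genes (16.1%, against 29.0% of all genes). These were Slc38a9, Slc7a6 and Slc7a6os with higher means and Slc3a1 and Slc38a3 with lower means. No gene of the families was called under other pseudocounts, normalizations, filters or gene summaries. In simulated arrays of this size limma recovered 57% of genes changed by 1 on the log2 scale and 3.5% of those changed by 0.5, and 8.31% of its calls were false. Both groups were simulated with the same spread. In the data the median standard deviation over all genes tested was 0.187 in WT and 0.291 in SRSF3HKO, so recovery here may differ.

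No overlap between the groups was found in 9 of the 31 genes (29.0%), against 35.6% of all genes tested. All SRSF3HKO arrays were higher in 6 of them (Slc1a7, Slc38a9, Slc3a2, Slc7a1, Slc7a6 and Slc7a6os), a pattern found in 21.6% of all genes. All were lower in the other 3 (Slc3a1, Slc36a1 and Slc38a10), a pattern found in 14.0% of all genes. A change of at least 1 on the log2 scale was seen in 1 of the 31 (Slc3a1), against 9.45% of all genes. The mean was higher in SRSF3HKO in 21 of the 31 (67.7%, against 57.4% of all genes), with a median change of 0.23 against 0.08 over all genes. The median standard error was 0.233 for the 31 genes and 0.223 for all.

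**Figure D1:**
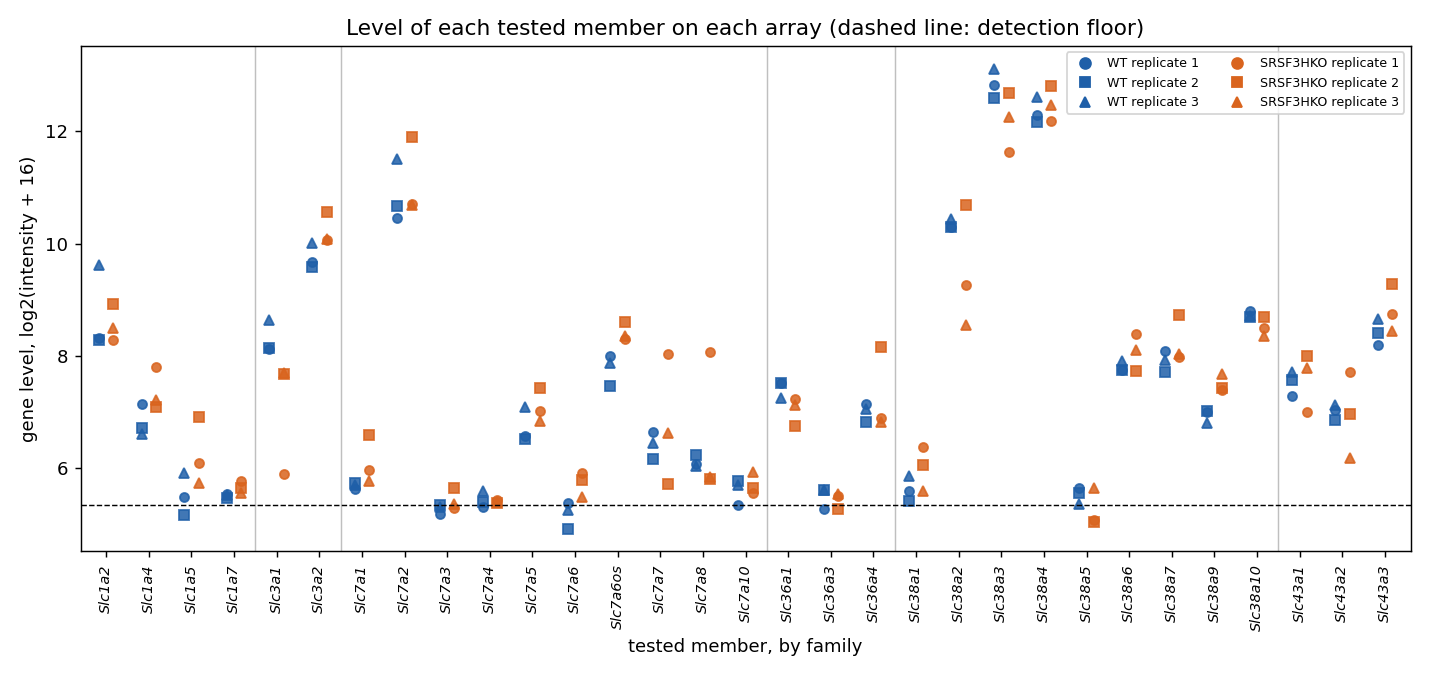
Level of each of the 31 tested genes, as log2(intensity + 16), on the 3 WT arrays (blue) and the 3 SRSF3HKO arrays (orange), ordered by family, with the detection floor of 5.35 as a dashed line. SRSF3HKO replicate 1 stands apart in Slc3a1, Slc7a7 and Slc7a8, and replicate 2 is the highest array in Slc1a5, Slc36a4 and Slc7a2.

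The means of the 2 heavy chains stood on opposite sides of WT. Slc3a1 encodes rBAT, the heavy chain that carries cystine and basic amino acids together with the light chain of Slc7a9. Its level was 8.12, 8.14 and 8.64 in WT and 5.89, 7.67 and 7.70 in SRSF3HKO. All SRSF3HKO arrays lay below all WT arrays, and replicate 1 lay far below its own group. The change was -1.21 ± 0.46 (SE, n = 3 and 3; limma adjusted p = 0.128). Without SRSF3HKO replicate 1 the change was -0.62 (adjusted p = 0.146). All 12 tested probe sets of Slc3a1 had a lower mean in SRSF3HKO, and all 12 were lowest on replicate 1. Probe sets of a gene are read on the same arrays, so here and below their common direction is not separate evidence. Fewer hepatocytes and less RNA per hepatocyte cannot be told apart in whole liver. The hepatocyte markers summed to 60454, 72938 and 69552 on the SRSF3HKO arrays, while Alb on the same arrays was 13.75, 13.95 and 13.92 against 13.89, 13.92 and 13.88 in WT. The part of cell makeup in this result was not tested. The difference was -0.43 among the arrays with Y-linked signal and -1.86 among those without it.

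Slc3a2 encodes CD98, the heavy chain shared by most other light chains. Its level was 9.67, 9.58 and 10.00 in WT and 10.07, 10.57 and 10.07 in SRSF3HKO. There was no overlap between the groups, though the highest WT array lay just below the lowest SRSF3HKO array. The change was 0.48 ± 0.22 (limma adjusted p = 0.184). All 11 tested probe sets had a higher mean in SRSF3HKO, and 9 of them were highest on replicate 2.

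Single probe sets were tested across the whole table as well, above a probe set floor of 5.63. Of the 609 probe sets of the families 397 were tested, in 39 genes. Limma called 13 of them (3.27%, in 7 genes), against 9.05% of all 157764 probe sets tested. There were 6 called higher and 7 called lower, where the shares over all probe sets were 4.73% and 4.32%. At an unadjusted p under 0.05 there were 71, where 25.8% of all probe sets passed. The groups did not overlap in 90 of the 397 (22.7%, against 31.8% of all), and 237 (59.7%, against 54.5% of all) had a higher mean in SRSF3HKO. The number called depended on which arrays were used. It was 1, 2 and 3 without WT replicates 1, 2 and 3, and 6, 47 and 10 without SRSF3HKO replicates 1, 2 and 3. A covariate for Y-linked signal left 3. Over the whole table the same settings moved the count from 3007 (without WT replicate 1) to 21886 (without SRSF3HKO replicate 2).

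Both heavy chains were among those 7 genes. In Slc3a1, 4 of the 12 tested probe sets fell. Probe set 4560212 had intensities of 455, 211 and 440 in WT against 24.6, 60.2 and 88.4 in SRSF3HKO, a change of -2.41 ± 0.41 (limma adjusted p = 0.0101). Every SRSF3HKO array was lower than every WT array. Probe set 4678684 went from 260, 286 and 451 to 11.9, 54.9 and 109 (-2.43 ± 0.49, limma adjusted p = 0.0198). For probe set 4520448 the values were 214, 214 and 330 against 14.8, 72.2 and 78.8 (-2.05 ± 0.43, limma adjusted p = 0.0221). Both showed the pattern of the gene, with replicate 1 the lowest array. The smallest of the 4 falls was that of probe set 5434814, from 120, 98.5 and 138 to 21.5, 62.4 and 42.1 (-1.27 ± 0.32, limma adjusted p = 0.0399). Without WT replicate 1 none of the 4 passed (adjusted p = 0.0617 to 0.137), and without WT replicate 2 or 3 probe set 4560212 alone passed (0.0259 and 0.0472). Probe set 5434814 also lost its call without SRSF3HKO replicate 1 (0.0771) or replicate 3 (0.0801) and with no filter (0.0705). With the Y covariate probe set 4560212 alone kept its call, and the other 3 had adjusted p = 0.0547 to 0.0838.

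In Slc3a2, 2 of the 11 tested probe sets rose. Probe set 4502872 had intensities of 695, 1002 and 939 on the WT arrays and 1954, 1372 and 1641 in SRSF3HKO, a change of 0.90 ± 0.23 (limma adjusted p = 0.0401). Probe set 5109328 had 1260, 1349 and 1592 against 2523, 2652 and 2013 (0.76 ± 0.19, limma adjusted p = 0.0428). In both, each SRSF3HKO array was brighter than each WT array. Both calls were lost without any 1 WT array (adjusted p = 0.0884 to 0.175) and without SRSF3HKO replicate 1 (0.0927 and 0.0879), and that of probe set 4502872 also without replicate 3 (0.0891). Both also missed the threshold with no filter on dim probe sets (0.0557 and 0.0600), with eBayes without trend (0.0618 and 0.0762) and with the Y covariate (0.102 and 0.107), and probe set 4502872 with median centring (0.0559).

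**Figure D2:**
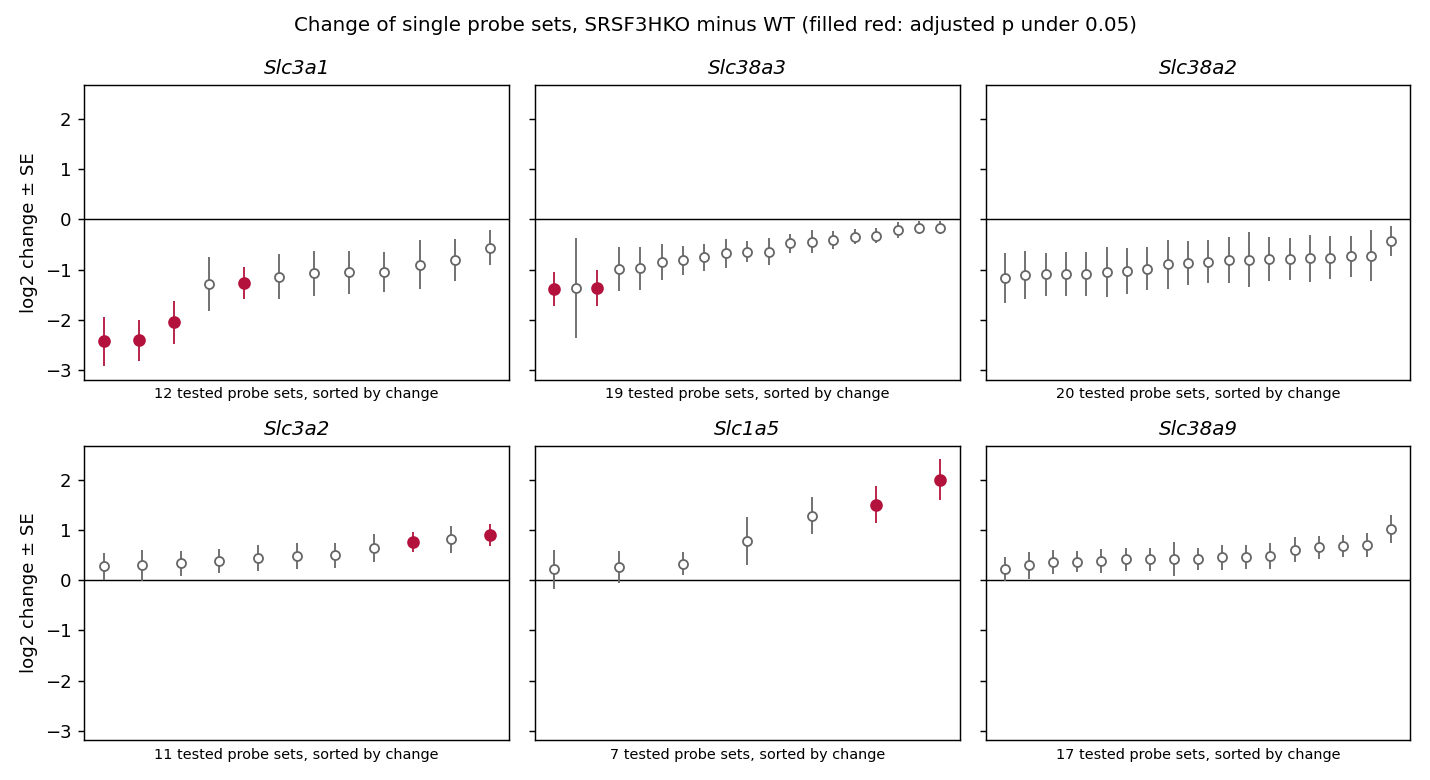
Change of every tested probe set (log2 scale, SRSF3HKO minus WT, ± SE) in 6 genes, sorted within each gene, with the called probe sets in red. All tested probe sets of Slc3a1, Slc38a3 and Slc38a2 lie below 0 and all of Slc3a2, Slc1a5 and Slc38a9 above it, whereas few are called.

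The light chains that pair with Slc3a2 had no called change. Slc7a5 encodes LAT1, which imports leucine and other large neutral amino acids. It had levels of 6.58, 6.52 and 7.09 in WT against 7.01, 7.43 and 6.84 in SRSF3HKO, a change of 0.37 ± 0.24 (limma adjusted p = 0.356). The groups overlapped, and 14 of its 15 tested probe sets had a higher mean in SRSF3HKO. Slc7a6, whose product y+LAT2 exchanges arginine for glutamine, had 5.38, 4.92 and 5.26 in WT and 5.91, 5.78 and 5.48 in SRSF3HKO. Its WT mean lay below the floor, so the fold is only a lower bound, at least 1.30-fold higher in SRSF3HKO. The groups did not overlap (limma adjusted p = 0.105). Its neighbour Slc7a6os, whose product is linked to nuclear import of RNA polymerase subunits rather than to transport, had 7.99, 7.46 and 7.86 against 8.30, 8.61 and 8.35. These groups did not overlap either (0.64 ± 0.21, limma adjusted p = 0.0876). In Slc7a6os 1 of 6 tested probe sets rose. This was probe set 5412180, with 495, 361 and 419 in WT and 723, 974 and 718 in SRSF3HKO (0.89 ± 0.23, limma adjusted p = 0.0428). Its call held when SRSF3HKO replicate 2 was left out. Without any other single array it was lost (adjusted p = 0.0611 to 0.154), as it was with no filter (0.0550), with eBayes without trend (0.0570) and with the Y covariate (0.110).

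Slc7a7 and Slc7a8 stood out on 1 array. Slc7a7 encodes y+LAT1, the exporter of basic amino acids that macrophages are known to express. Its level was 6.65, 6.16 and 6.45 in WT and 8.04, 5.71 and 6.62 in SRSF3HKO (0.37 ± 0.51, limma adjusted p = 0.679). Slc7a8, which encodes LAT2, had 6.07, 6.23 and 6.03 in WT, against 8.07, 5.80 and 5.84 in SRSF3HKO (0.46 ± 0.55, limma adjusted p = 0.625). SRSF3HKO replicate 1 was the highest array for all 11 tested probe sets of Slc7a7 and all 13 of Slc7a8. Without that array the change was -0.26 in Slc7a7 (adjusted p = 0.618) and -0.29 in Slc7a8 (adjusted p = 0.341).

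Slc7a11, the cystine importer xCT that supplies glutathione synthesis, was also highest on that array. It was below the floor at the gene level and untested, with 4.92, 4.66 and 4.85 in WT and 6.60, 5.27 and 4.98 in SRSF3HKO. The groups did not overlap, but on 5 of the 6 arrays the level lay below the floor. Its probe set 5067167 had intensities of 42.0, 40.7 and 31.8 on the WT arrays and 777, 16.9 and 46.3 in SRSF3HKO, far brighter on replicate 1 than on any other array. Both of its tested probe sets were highest there and lowest on SRSF3HKO replicate 2, below every WT array.

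The macrophage markers followed that array as well. All 8 listed markers (Adgre1, Cd68, Clec4f, Marco, Csf1r, Vsig4, Lyz2 and Cd5l) were measured, none lay below the floor on all arrays, and all 8 were highest on SRSF3HKO replicate 1. Their summed intensity was 3270, 3264 and 2905 in WT and 21120, 3479 and 3953 in SRSF3HKO. Markers of cholangiocytes did not follow that array as a class. Their sum of 583, 497 and 710 in WT against 2988, 1097 and 838 in SRSF3HKO was highest there through Spp1, at 11.41, whereas Krt19 was highest on WT replicate 3 (8.03) and Epcam on SRSF3HKO replicate 2 (7.85). Neutrophil markers summed to 91, 89 and 55 in WT and 404, 130 and 83 in SRSF3HKO. Lymphocyte markers summed to 175, 225 and 218 in WT and 320, 140 and 120 in SRSF3HKO. Both sums were highest on replicate 1 as well, as was the sum of pancreatic acinar markers at 265. All 4 acinar markers that were measured (Cpa1, Cela3b, Pnlip and Ctrb1) were highest there, as all macrophage markers were. S100a8, S100a9 and Retnlg were highest there and Mpo was not. Cd3g, Cd79b and Nkg7 were highest there and Cd3e, Cd79a and Ms4a1 were not. The part of macrophages or other cell types in the values of Slc7a7, Slc7a8 and Slc7a11 was not tested.

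**Figure D3:**
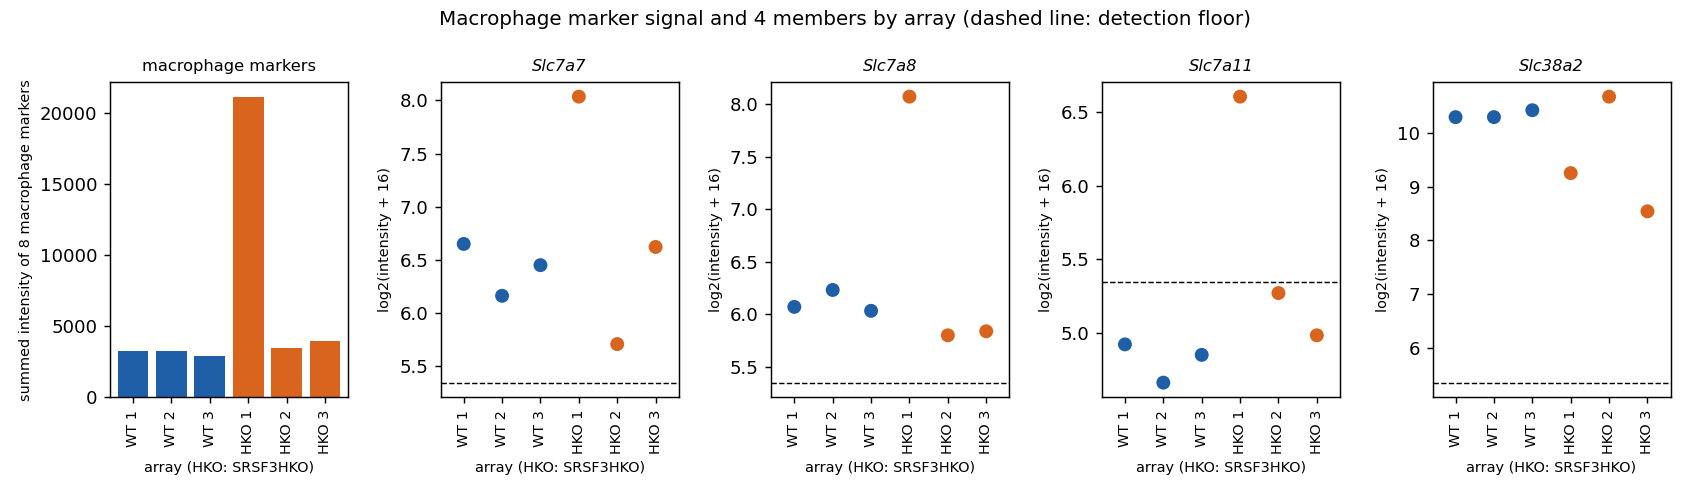
Summed intensity of 8 macrophage markers (bars, linear axis) and levels of Slc7a7, Slc7a8, Slc7a11 and Slc38a2 (points, log2(intensity + 16)) on each array, with the gene floor of 5.35 as a dashed line. The markers, Slc7a7, Slc7a8 and Slc7a11 are highest on SRSF3HKO replicate 1, whereas Slc38a2 is lower on SRSF3HKO replicates 1 and 3 and highest on replicate 2.

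Slc7a10, the exchanger Asc-1 for small neutral amino acids, stayed near the floor, with a change of 0.10 ± 0.19 (limma adjusted p = 0.760). Among the cationic carriers, which take up arginine, lysine and ornithine, Slc7a1 had levels of 5.62, 5.74 and 5.71 in WT against 5.97, 6.59 and 5.76 in SRSF3HKO. There was no overlap, but SRSF3HKO replicate 3 lay just above the WT arrays (0.42 ± 0.23, limma adjusted p = 0.265). Of the 7 tested probe sets of Slc7a1, 4 had a higher mean in SRSF3HKO and 3 a lower mean. Slc7a2, which encodes CAT2, the cationic carrier of adult liver, had 10.45, 10.68 and 11.50 in WT and 10.71, 11.90 and 10.69 in SRSF3HKO (0.23 ± 0.39, limma adjusted p = 0.743). In each group 1 array was high, and the groups overlapped. Of the 16 tested probe sets of Slc7a2, 15 had a higher mean in SRSF3HKO. Slc7a3, the gene for CAT3, and Slc7a4, a relative of the cationic carriers, lay close to the floor. The WT mean of Slc7a3 was below it and the SRSF3HKO mean at least 1.06-fold higher, but the groups overlapped (limma adjusted p = 0.580). Slc7a4 had a change of -0.03 ± 0.15 (limma adjusted p = 0.926).

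Glutamine, alanine and serine enter cells through Slc1a5 (ASCT2) and Slc1a4 (ASCT1). Slc1a5 had levels of 5.49, 5.17 and 5.91 on the WT arrays and 6.09, 6.91 and 5.74 in SRSF3HKO. SRSF3HKO replicate 2 was the highest array for all 7 tested probe sets, while replicate 3 lay within the WT range. The change was 0.72 ± 0.32 (limma adjusted p = 0.178), and all 7 probe sets had a higher mean in SRSF3HKO. Slc1a4, one of the 3 genes with the composite element letters, had 7.14, 6.71 and 6.62 in WT and 7.81, 7.08 and 7.21 in SRSF3HKO. Its groups overlapped at 1 array (0.55 ± 0.25, limma adjusted p = 0.199), and all 10 tested probe sets had a higher mean in SRSF3HKO.

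In Slc1a5, 2 of the 7 tested probe sets rose. Probe set 5042931 had intensities of 18.9, 24.9 and 10.6 in WT against 122, 219 and 59.8 in SRSF3HKO. Since the WT mean lay below the probe set floor, the fold is a lower bound, and the signal was at least 2.73-fold higher in SRSF3HKO (limma adjusted p = 0.0205). Probe set 5576177 had 17.3, 15.5 and 37.8 against 82.1, 159 and 59.5, at least 2.21-fold higher (limma adjusted p = 0.0396). In both, replicate 2 was the brightest array and no SRSF3HKO array fell within the WT range. Both calls were lost without any 1 WT array (adjusted p = 0.0606 to 0.142), and that of probe set 5576177 also without SRSF3HKO replicate 1 (0.0636) or replicate 2 (0.0649) and with no filter (0.0663). With the Y covariate both were lost (0.0562 and 0.0746).

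The glutamate carriers of the Slc1a family include Slc1a2 (GLT-1), which in liver belongs to the hepatocytes around the central vein. Its level was 8.31, 8.29 and 9.61 in WT and 8.28, 8.93 and 8.49 in SRSF3HKO, with WT replicate 3 the highest array (-0.17 ± 0.37, limma adjusted p = 0.802). The difference was 0.19 among the arrays with Y-linked signal and -1.01 among those without it. Glul, the glutamine synthetase of the same hepatocytes, fell from 11.27, 11.47 and 12.10 to 10.48, 10.42 and 10.55 (-1.13 ± 0.23, limma adjusted p = 0.0216). Slc1a7 (EAAT5) had levels of 5.55, 5.47 and 5.53 on the WT arrays and 5.77, 5.65 and 5.56 in SRSF3HKO. This was a small difference without overlap close to the floor (0.15 ± 0.15, limma adjusted p = 0.557). Of its 6 tested probe sets only 2 had a higher mean in SRSF3HKO and 4 had a lower mean. Slc1a1 encodes EAAC1, a carrier of glutamate and cysteine, and lay below the floor as a gene. Its levels of 4.84, 4.56 and 4.62 in WT against 5.45, 5.14 and 5.01 in SRSF3HKO did not overlap and were not tested.

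One probe set of Slc1a1 had the lowest adjusted p of the 397. Probe set 5363024 had intensities of 67.6, 55.0 and 70.0 on the WT arrays and 298, 347 and 292 in SRSF3HKO. The 3 SRSF3HKO arrays lay close together and far above the WT arrays (2.03 ± 0.22, limma adjusted p = 0.00182). This call held in all 16 alternatives that were run, including every array left out in turn (highest adjusted p = 0.0185). On SRSF3HKO replicate 1, where the macrophage markers were highest, its value lay between those on replicates 2 and 3. The part of cell makeup in the rise of this probe set was not tested.

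Slc38a3 encodes SNAT3, the system N carrier that moves glutamine in and out of hepatocytes. Its level was 12.82, 12.59 and 13.11 in WT and 11.63, 12.68 and 12.24 in SRSF3HKO. Replicates 1 and 3 lay below all WT arrays and replicate 2 within their range. The change was -0.65 ± 0.27 (limma adjusted p = 0.159), all 19 tested probe sets had a lower mean in SRSF3HKO, and 18 of them were lowest on replicate 1. Without SRSF3HKO replicate 2 the change was -0.90 and was called (adjusted p = 0.0343), as it was with array weights (-0.79, adjusted p = 0.0420).

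In Slc38a3, 2 of the 19 tested probe sets fell. Probe set 5246169 had intensities of 3870, 2872 and 5188 in WT against 876, 2103 and 1728 in SRSF3HKO (-1.38 ± 0.34, limma adjusted p = 0.0377). Probe set 5242572 had 1700, 1112 and 1687 against 339, 976 and 531 (-1.37 ± 0.36, limma adjusted p = 0.0489). The groups did not overlap in either. Both calls held without SRSF3HKO replicate 2. Without any other single array both were lost (adjusted p = 0.0531 to 0.175). For probe sets 5246169 and 5242572 the calls were also lost with no filter (0.0633 and 0.0757), with eBayes without trend (0.0562 and 0.0646) and with the Y covariate (0.0762 and 0.0898), and for probe set 5242572 with a pseudocount of 1 (0.0526).

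Slc38a2 encodes SNAT2, the system A carrier of small neutral amino acids that cells raise when amino acids are short. Its level was 10.30, 10.30 and 10.43 in WT, within a narrow range. In SRSF3HKO the levels were 9.26, 10.68 and 8.54, with replicates 1 and 3 below and replicate 2 above every WT array. All 20 tested probe sets had a lower mean in SRSF3HKO, 18 were lowest on replicate 3, and 16 were highest on replicate 2. The change was -0.85 ± 0.47 (limma adjusted p = 0.270). Without SRSF3HKO replicate 2 it was -1.44 (adjusted p = 0.00654), and with array weights it was -1.25 (adjusted p = 0.0294), both called. Without replicate 3 it was -0.37 (adjusted p = 0.578). The difference was -1.76 among the arrays with Y-linked signal and -0.46 among those without it.

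Slc38a4, which encodes SNAT4, the system A carrier typical of liver, had levels of 12.28, 12.17 and 12.61 on the WT arrays and 12.19, 12.80 and 12.47 in SRSF3HKO. The groups overlapped (0.13 ± 0.21, limma adjusted p = 0.725). Slc38a1 encodes SNAT1, which is known mainly outside the liver, and had 5.60, 5.41 and 5.87 in WT and 6.37, 6.05 and 5.60 in SRSF3HKO (0.38 ± 0.23, limma adjusted p = 0.315). Slc38a5, the system N carrier SNAT5, had 5.65, 5.56 and 5.36 in WT and 5.07, 5.05 and 5.65 in SRSF3HKO. Its groups overlapped, and SRSF3HKO replicate 3 was the highest array. The SRSF3HKO mean lay below the floor, at least 1.13-fold below the WT mean, and the difference was not called (limma adjusted p = 0.427). Slc38a6 had a change of 0.27 ± 0.22 (adjusted p = 0.458). Slc38a10 had 8.80, 8.70 and 8.71 in WT and 8.50, 8.69 and 8.35 in SRSF3HKO, without overlap by a narrow margin (-0.22 ± 0.18, limma adjusted p = 0.462).

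Lysosomal carriers had means on either side of WT. Slc38a9, the arginine sensor of the lysosome, had levels of 6.99, 7.01 and 6.80 in WT against 7.40, 7.42 and 7.68 in SRSF3HKO. All SRSF3HKO arrays were higher, and the gap between the groups was wider than the range of either. The change was 0.56 ± 0.19, and its adjusted p of 0.0860 in limma was the lowest of the 31 genes. All 17 tested probe sets had a higher mean in SRSF3HKO. The difference was 0.67 among the arrays with Y-linked signal and 0.61 among those without it, and over the alternatives the adjusted p ran from 0.0451 (array weights) to 0.262 (without WT replicate 3).

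Slc38a7, which encodes the lysosomal glutamine exporter SNAT7, had 8.09, 7.72 and 7.93 in WT and 7.98, 8.73 and 8.04 in SRSF3HKO (0.33 ± 0.25, limma adjusted p = 0.418). All 12 of its tested probe sets were highest on SRSF3HKO replicate 2. Slc36a1 encodes PAT1, which exports small amino acids from lysosomes together with protons. It had 7.51, 7.52 and 7.25 in WT against 7.24, 6.74 and 7.12 in SRSF3HKO, a pair of groups that just failed to overlap (-0.40 ± 0.21, limma adjusted p = 0.248), and 13 of 16 tested probe sets had a lower mean. Slc36a4, the related carrier PAT4, had 7.15, 6.82 and 7.05 in WT and 6.90, 8.15 and 6.81 in SRSF3HKO, with replicate 2 alone above the WT range (0.28 ± 0.35, limma adjusted p = 0.640). Slc36a3 lay close to the floor (-0.06 ± 0.17, limma adjusted p = 0.855).

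In the Slc43a family, Slc43a1 (LAT3) and Slc43a2 (LAT4) carry branched-chain amino acids, whereas Slc43a3 is known to carry purine nucleobases. Slc43a1 had 7.29, 7.56 and 7.72 in WT and 7.00, 7.99 and 7.78 in SRSF3HKO (0.07 ± 0.28, limma adjusted p = 0.906). Slc43a2 had 7.04, 6.85 and 7.13 in WT and 7.72, 6.97 and 6.19 in SRSF3HKO (-0.05 ± 0.35, limma adjusted p = 0.944). In Slc43a2 the SRSF3HKO arrays spread to both sides of the WT arrays. For Slc43a3 the levels were 8.19, 8.41 and 8.66 in WT and 8.74, 9.27 and 8.45 in SRSF3HKO (0.40 ± 0.26, limma adjusted p = 0.343), and 15 of 16 tested probe sets had a higher mean in SRSF3HKO.

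The 12 untested genes lay below the floor on average. Apart from Slc1a1 and Slc7a11, described above, these were the glutamate carriers Slc1a3 and Slc1a6, the glycine and proline carrier Slc36a2, Slc38a8 and Slc38a11, and Slc7a9, Slc7a12, Slc7a13, Slc7a14 and Slc7a15. In these 10 the groups overlapped. Slc7a9, the light chain that pairs with Slc3a1, had levels of 4.61, 4.71 and 4.73 on the WT arrays and 4.70, 5.00 and 4.96 in SRSF3HKO, all below the floor, so no fold is given for it.

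**Figure D4:**
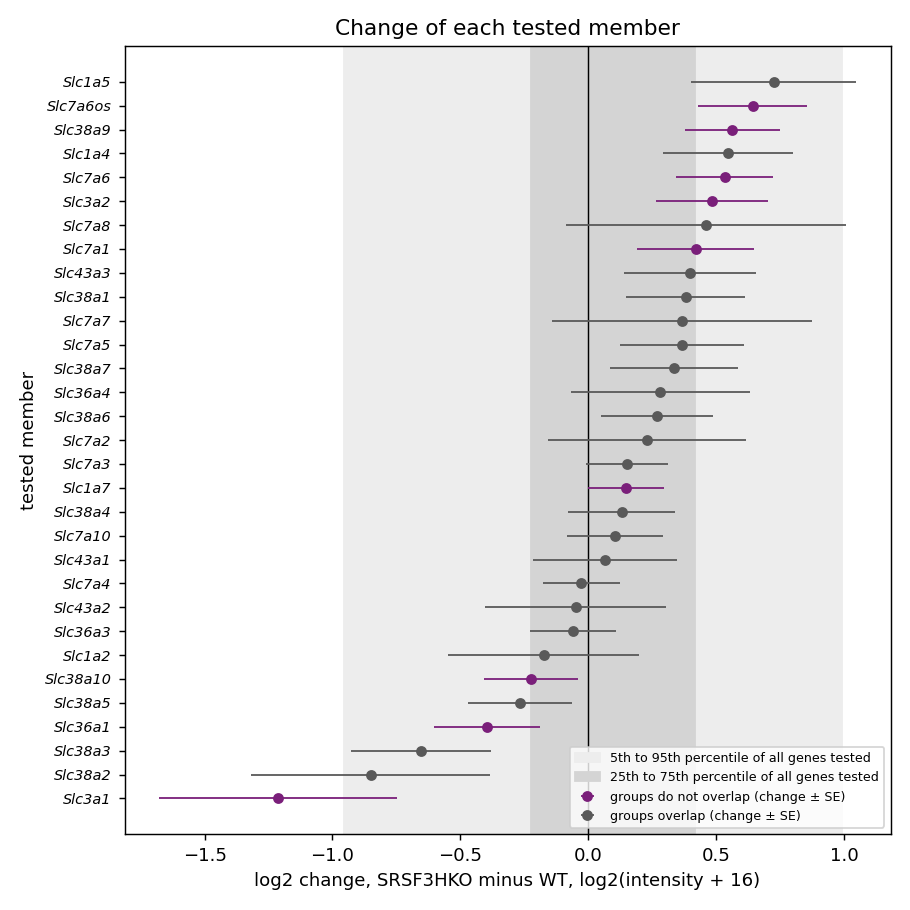
Change of each of the 31 tested genes (log2 scale, SRSF3HKO minus WT, ± SE), sorted, over grey bands that hold the middle of all genes tested. Genes whose groups do not overlap are purple; Slc3a1 at -1.21 is the only one beyond 1 in size.

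Whether single stretches of a transcript moved apart from the rest of the gene, called exon usage here, was examined with the diffSplice function of limma. It covered 391 probe sets in 36 genes of the families, of 142800 probe sets in 12252 genes. Usage was called in 3 of the 391 (0.767%), against 0.662% of all. There were 2 called higher (0.298% of all probe sets) and 1 called lower (0.365% of all). At an unadjusted p under 0.05 there were 22, where 6.73% of all passed. The share called was thus near that of the whole table. None of the 3 calls was made by a second test, the splicing index of probe set minus gene level (adjusted p = 0.0932, 0.189 and 0.522). Where each probe set was simulated with its own spread, 14.7% of the calls of diffSplice were false, against 4.82% with 1 spread per gene.

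The first was probe set 5363024 of Slc1a1, whose intensities stand above. Relative to the median of the gene's 5 other tested probe sets it stood at 0.45, 0.07 and 0.77 in WT and 1.85, 2.05 and 2.07 in SRSF3HKO, on the log2 scale. The groups were well apart. By diffSplice, which compares a probe set with the average rather than the median of the others, usage was higher by 1.73 ± 0.36 (limma diffSplice adjusted p = 0.0127). The other 5 tested probe sets were dim. The call was lost without WT replicates 1, 2 or 3 (adjusted p = 0.117, 0.123 and 0.0583) and without SRSF3HKO replicate 3 (0.0504), and also with a pseudocount of 1 (0.0514).

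In Slc38a1, probe set 4963987 was lower in SRSF3HKO both in itself and relative to its gene. Its intensities were 225, 287 and 198 in WT and 70.7, 70.7 and 94.1 in SRSF3HKO (-1.41 ± 0.24, limma adjusted p = 0.0108). Against the median of the gene's remaining probe sets it stood at 1.58, 2.04 and 1.26 in WT and -1.26, -0.06 and 0.54 in SRSF3HKO. The usage change by diffSplice, against their average, was -1.80 ± 0.46 (limma diffSplice adjusted p = 0.0423). The 3 SRSF3HKO arrays lay close together in the probe set itself but spread in its usage, and 8 of the 11 tested probe sets of the gene were highest on replicate 1. The call of the probe set was lost without WT replicate 1 (0.0591) or 2 (0.0556). Its usage call was lost without WT replicates 1, 2 or 3 (0.206, 0.408 and 0.139) and without SRSF3HKO replicate 2 (0.0786). It was also lost with a pseudocount of 1 (0.0686), a filter at the median (0.103), array weights (0.0509) and the Y covariate (0.189).

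The third was probe set 5388404 of Slc38a4, with intensities of 136, 52.5 and 108 in WT against 182, 472 and 181 in SRSF3HKO. In itself it was not called (1.29 ± 0.42, limma adjusted p = 0.0909). Its usage was higher by 1.22 ± 0.32 (limma diffSplice adjusted p = 0.0374), with replicate 2 the brightest array. The usage call held without SRSF3HKO replicate 2 (0.0490) and was lost without any other single array (0.0655 to 0.409). It was also lost with a pseudocount of 64 (0.0846), quantile normalization (0.0555), no filter (0.0683), array weights (0.0511) and the Y covariate (0.0966). Positions of probe sets in their genes were not used here, so the exons behind the 3 calls are not named.

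**Figure D5:**
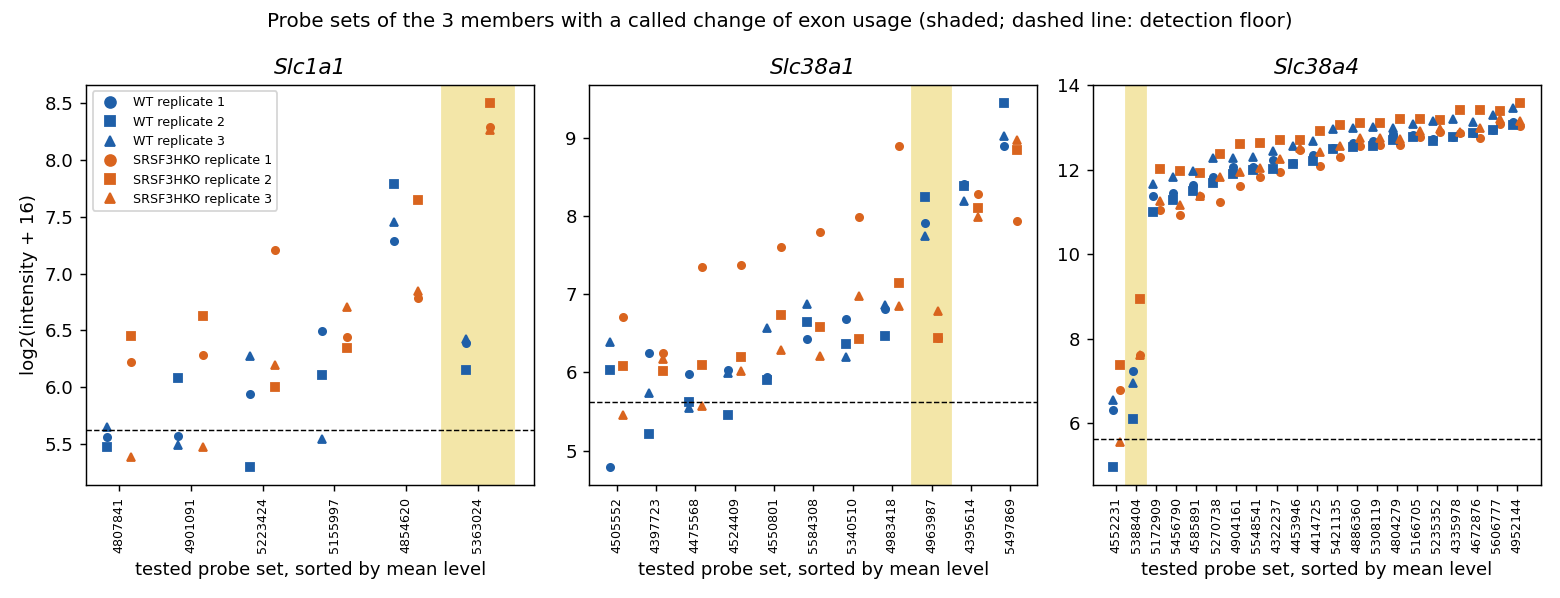
Level of each tested probe set, log2(intensity + 16), of Slc1a1, Slc38a1 and Slc38a4 on the WT arrays (blue) and the SRSF3HKO arrays (orange), with the probe set called for usage shaded and the probe set floor of 5.63 dashed. The shaded probe set of Slc1a1 is higher on all SRSF3HKO arrays and that of Slc38a1 lower on all of them, where replicates 1 and 2 coincide at an intensity of 70.7.

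The SRSF3HKO arrays differed from one another more than the WT arrays did. The standard deviation was larger in SRSF3HKO in 24 of the 31 genes (77.4%, against 69.0% of all genes), with medians of 0.343 in SRSF3HKO and 0.214 in WT. SRSF3HKO replicate 2 was the highest array for 13 of the 31 genes, where 25.7% of all genes were highest on it. Relative to the WT mean, the median over the 31 genes was 0.06 on replicate 1, 0.34 on replicate 2 and 0.08 on replicate 3, and over all genes it was 0.11, 0.07 and 0.04. Among the genes mostly highest on replicate 2 were Slc1a5 (7 of 7 tested probe sets), Slc38a7 (12 of 12), Slc36a4 (14 of 15), Slc7a2 (15 of 16) and Slc43a3 (14 of 16).

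Of the members, 8 are known targets of ATF4 (Slc7a11, Slc3a2, Slc7a5, Slc7a1, Slc7a3, Slc38a2, Slc1a4 and Slc1a5), a grouping made with their values known. Limma called 0 of the 7 tested, where 11.9% of all genes were called, and 0 of them passed at an unadjusted p under 0.05, where 29.0% of all genes did. With so few genes these counts show nothing particular to ATF4 targets, and without SRSF3HKO replicate 2 or with array weights Slc38a2 was called, with a lower mean. Their median change was 0.42, against 0.08 over all genes tested. Of 26 other genes of the ATF4 and amino acid response, all tested, 5 were called higher and 1 lower, where 6.85% and 5.03% of all genes were, and their median change was 0.59. Asns, asparagine synthetase, rose from 5.94, 5.64 and 5.60 to 9.90, 10.44 and 8.92 (4.03 ± 0.36, limma adjusted p = 0.00108). The stress-response genes Atf3 (2.03 ± 0.24), Ddit3 (1.24 ± 0.24), Ddit4 (2.18 ± 0.56) and Ppp1r15a (1.57 ± 0.35) were higher on every SRSF3HKO array. Atf5, a transcription factor related to ATF4, fell by 1.59 ± 0.20. Atf4 itself had a change of 0.42 (limma adjusted p = 0.262).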

How the data were processed

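The deposited values are linear probe set intensities of core exons, which the authors made with PLIER in Affymetrix Expression Console, per the submitters' processing notes; versions and background correction are not given in the sources used here. All 6 arrays were used, grouped by the genotype in the labels, and their number limits the precision. Replicate numbers follow sample order.

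Of the probe sets, 208397 were annotated with 1 gene, 3965 with several and 17219 with none. Gene-level tests used the first kind. No probe set with several genes named a member, and all 43 member symbols were current in RefSeq. Intensities were taken as log2(intensity + 16). The floor was set at the 90th percentile of the levels of 1046 receptor genes (taste, olfactory and vomeronasal). Where a group mean lay below it, the fold is a lower bound from the floor.

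Tests used limma 3.58.1 in R 4.3.3 (mean-variance trend, Benjamini-Hochberg over all features tested, threshold 0.05) and tables were read with the R package data.table, version 1.17.8. Exon usage used diffSplice in genes with at least 3 tested probe sets. Figures were drawn with matplotlib 3.10.9, numpy 2.4.6 and pandas 2.3.3 under Python 3.11.15. Tested on data simulated with the same spread in both groups, limma recovered 57% of genes and 28.6% of probe sets changed by 1 on the log2 scale. Of those changed by 2 it recovered 99.5% and 95.8%. Of its calls 8.31% in genes and 5.88% in probe sets were false. For exon usage the shares recovered were 27.1% of changes by 1 and 94% of changes by 2 with 1 spread per gene.

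The members and lists were chosen with earlier results of these data known. Every member is named. Called features and members whose groups did not overlap are given by array, others by role, and from each further list the called genes with the lowest adjusted p; values by array for other members were added after they were seen. Alternatives were median centring, quantile normalization, pseudocounts of 1 and 64, no filter or one at the median, other gene summaries, other eBayes settings, array weights, Y-linked signal as a covariate, stricter thresholds, the splicing index, and each array left out in turn.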

Additional observations from a re-analysis of the deposited data

How the results depend on the processing

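The count of called genes, 0 of 31, was 3 with array weights (Slc38a2, Slc38a3 and Slc38a9), ran from 0 to 2 with single arrays left out, and was 0 under every other alternative run. The count of called probe sets, 13, was 8 with eBayes without trend, 44 with array weights and 3 with Y-linked signal as a covariate, and ran from 1 (without WT replicate 1) to 47 (without SRSF3HKO replicate 2) with single arrays left out. None of the 13 changed direction in any alternative. The count of exon usage calls, 3, was 1 with a pseudocount of 1, 2 with quantile normalization and 5 with array weights. It was 1 with Y-linked signal as a covariate and 0 by the splicing index. With a pseudocount of 64 it stayed at 3, but the call in Slc38a4 was lost and a call in Slc43a1 was added. With single arrays left out it ran from 0 (without any 1 WT array) to 5 (without SRSF3HKO replicate 1). Fewer arrays enter when 1 is left out; otherwise the cause was not tested. As 0 of the 31 genes were called, every gene whose direction turned was one that was not called. Slc43a1 was -0.0031 after quantile normalization, Slc36a3 was 0.034 and Slc36a4 was -0.023 with array weights, and Slc7a2 was -0.030 with Y-linked signal as a covariate. Slc7a10 was -0.054 with the mean and -0.048 with a median polish over probe sets. With only probe sets above the floor, Slc7a10 was -0.12, Slc1a7 was -0.077 and Slc1a2 was 0.00068. With single arrays left out, the ranges that crossed 0 were -0.40 to 0.26 in Slc1a2, -0.17 to 0.021 in Slc36a3, -0.15 to 0.52 in Slc36a4, -0.026 to 0.28 in Slc38a4, -0.13 to 0.36 in Slc43a1, -0.43 to 0.34 in Slc43a2, -0.027 to 0.19 in Slc7a10, -0.17 to 0.54 in Slc7a2, -0.086 to 0.053 in Slc7a4, -0.26 to 0.91 in Slc7a7 and -0.29 to 0.84 in Slc7a8. Genes below the floor limit what can be said of 12 members. eBayes without trend was not run for exon usage, since diffSplice takes no trend. No paired analysis was possible because the labels give the genotypes no shared replicate numbers.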

Other observations

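Genes that work beside these carriers were counted in 3 further lists. Over all genes tested, 6.85% were called higher in SRSF3HKO and 5.03% lower. Of 26 other amino acid carriers 25 were measured and 15 tested. In these, 1 was called higher and 2 lower, with a median change of 0.00. Slc66a1, the lysosomal exporter of basic amino acids, rose from 7.43, 7.44 and 7.20 to 8.34, 8.14 and 8.73 (1.05 ± 0.22, limma adjusted p = 0.0211). Slc17a8, a vesicular glutamate carrier, fell from 7.84, 6.92 and 7.13 to 5.58, 6.28 and 5.53, and Slc6a12, the betaine carrier, from 9.86, 9.99 and 10.38 to 9.04, 9.17 and 9.51. The groups did not overlap in any of the 3.

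Of 31 genes that sense amino acids upstream of mTORC1, 26 were measured and tested, with 2 called higher and 1 lower and a median change of 0.06. Rragd, a GTPase that ties mTORC1 to the lysosome, was at least 2.57-fold higher in SRSF3HKO, a lower bound because its WT mean lay below the floor (limma adjusted p = 0.0130), and Lamtor3, a subunit of its lysosomal anchor, rose by 1.30 ± 0.23. Sesn3, of the sestrin family, fell by 0.85 ± 0.20. Of 31 enzymes that use the carried amino acids, 26 were measured and 25 tested, with 2 called higher, 2 lower and a median change of 0.24. Arg2, the mitochondrial arginase, was below the floor on all WT arrays and at least 2.84-fold higher in SRSF3HKO (limma adjusted p = 0.00975). Gss, glutathione synthetase, rose by 0.79 ± 0.18, while Gclm, a subunit of the enzyme that makes the glutathione precursor, fell by 0.82 ± 0.18 beside Glul.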
